A study of Mus musculus with 6 samples.

Results

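The periaxin, DRP2 and dystroglycan complex of myelinating Schwann cells was examined in RNA-Seq counts of mouse sciatic nerve. Its members were chosen by name, as the 10 gene symbols Prx, Drp2, Dag1, Utrn, Dmd, Sgce, Sgcb, Sgcd, Dtna and Sntb1, and all 10 were found among the 24015 symbols counted. The study asked what loss of Rnf40 does to Schwann cells. Rnf40 is a subunit of the E3 ligase that places monoubiquitin on histone H2B. RNA was compared between 3 control and 3 Rnf40ΔSC libraries, all from sciatic nerve at postnatal day 14. Controls were Rnf40 fl/fl without Cre, and Rnf40ΔSC mice carried the same floxed alleles together with Dhh::Cre. The Cre transgene is active in the Schwann cell lineage from its early stages and removes exons 3 and 4 of Rnf40 there. Which other cells of the nerve kept the gene at this age was not tested. Each library came from a pool of 3 nerves, and the study used males and females. The sample labels give a mixed 129SvJ/C57Bl/6J background and the methods a mixed C3H × C57Bl/6J background, in either case for both genotypes.

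Periaxin is a PDZ-domain protein of the Schwann cell membrane that binds DRP2, a short relative of dystrophin, and through it dystroglycan, a receptor for laminin in the basal lamina. This assembly forms the patches where the outer Schwann cell membrane is apposed to the myelin sheath, between which the cytoplasmic channels called Cajal bands run. Outside the patches dystroglycan associates with utrophin or with the short dystrophin Dp116, with sarcoglycans, dystrobrevin and syntrophins, and mutations of PRX cause a demyelinating Charcot-Marie-Tooth neuropathy in humans.

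The counts of a library summed to 1317167, 1992622 and 2468765 for the controls, in the order of their replicate numbers, and to 2184268, 1459387 and 2186710 for Rnf40ΔSC. Values below are normalized counts, that is counts scaled by TMM to the mean effective library size, unless raw counts are named. Rnf40 itself had 130, 126 and 142 normalized counts in control and 90.2, 90.4 and 94.2 in Rnf40ΔSC libraries, with no overlap. Its log2 fold change was -0.54 (SE, the standard error, 0.14; adjusted p = 0.00242 by the quasi-likelihood F test of edgeR after Benjamini-Hochberg adjustment), and -0.27 (adjusted p = 0.12 by the same test) when libraries were scaled by total counts. Gene counts do not show the deleted exons, which were not checked. For Rnf20, the partner subunit, the log2 fold change was 0.44 (adjusted p = 0.00998 by the same test), which did not pass 0.05 without control replicate 3 (adjusted p = 0.087) or Rnf40ΔSC replicate 1 (adjusted p = 0.057). Labels call the libraries biological replicates, and p-values measure the spread between these pools.

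The libraries differed in their content of other tissue. All 15 skeletal muscle markers were detected in each library, and their summed level was 5035, 3935 and 2875 CPM (library-size-scaled counts, here after TMM) in control against 135, 324 and 3668 in Rnf40ΔSC libraries. By this sum Rnf40ΔSC replicate 3 lay within the control range, and Rnf40ΔSC replicates 1 and 2 far under it. Some single markers of replicate 3 lay outside the control range, such as Myh4 below and Myh2 above every control library. The most abundant of the 15, Myh4, was counted 1711, 1657 and 1571 times in control libraries and 58, 46 and 1473 times in those of Rnf40ΔSC. Of the 14 muscle markers tested, 0 had an adjusted p of at most 0.05 by edgeR or by DESeq2, and 0 an unadjusted p under 0.05, but 12 were lower by edgeR when Rnf40ΔSC replicate 3 was left out. Muscle also transcribes Dag1, Dmd, Utrn, sarcoglycan and syntrophin genes. The summed level of 8 markers of the Schwann cell lineage, all of them found in the files, was 3112, 3626 and 3344 in control and 2143, 2182 and 1959 in Rnf40ΔSC libraries. Of these 8 genes, 6 were lower and 2, Foxd3 and Sox2, higher at an adjusted p of at most 0.05. RNA from whole nerve cannot separate fewer cells of a type from less RNA per cell. In stained sections, the paper found the share of Sox10-positive cells comparable between genotypes at all ages studied. At postnatal day 14 it counted more cells per section and a higher Schwann cell density in Rnf40ΔSC nerves. The share of Iba1-positive macrophages was also larger there. Aif1, which encodes Iba1, was counted at most 3 times in any library here.

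**Figure D1:**
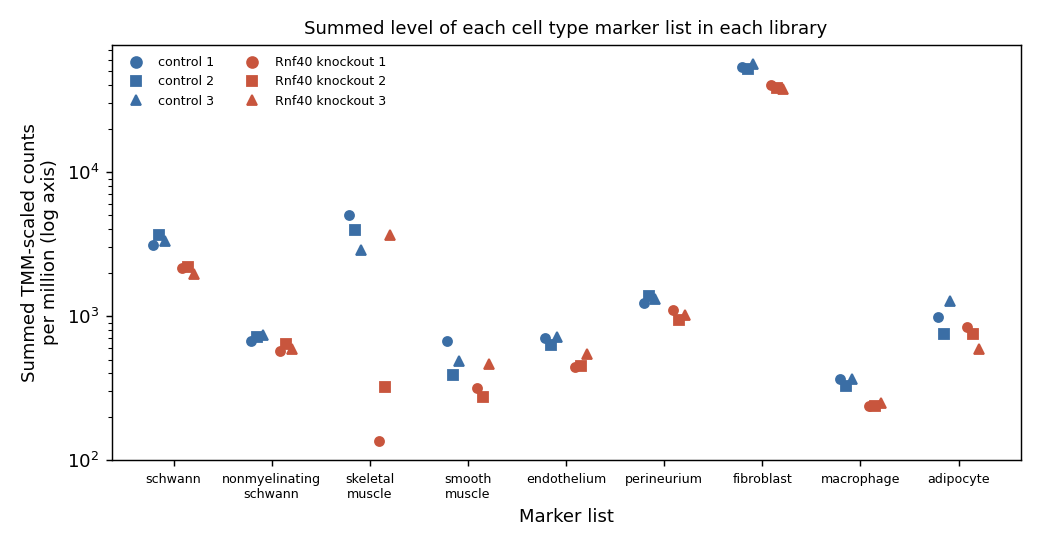
Summed TMM-scaled CPM of each cell type marker list (log axis), with 1 symbol per library, 3 control and 3 Rnf40 knockout. Skeletal muscle markers summed to 135 and 324 in Rnf40 knockout replicates 1 and 2 and to between 2875 and 5035 in the other libraries.

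Among the lists for other cells of the nerve, summed levels after TMM were lower in every Rnf40ΔSC library than in every control library for endothelium (446 to 544 against 629 to 720), perineurium (938 to 1109 against 1237 to 1372), fibroblasts (37813 to 39929 against 52150 to 56572) and macrophages (238 to 250 against 330 to 366). The same held for nonmyelinating Schwann cells (573 to 642 against 673 to 744), while the groups overlapped for smooth muscle (273 to 462 against 391 to 676) and adipocytes (588 to 838 against 753 to 1283). The most abundant genes of these lists were Cdh5, Tjp1, Col3a1, Csf1r, Ncam1, Acta2 and Fabp4, in the same order. Scaled by total counts, a comparison chosen after the data had been seen, the groups overlapped for endothelium (481 to 608 against 565 to 661), perineurium (1040 to 1195 against 1153 to 1232) and nonmyelinating Schwann cells (618 to 712 against 627 to 683), but not for fibroblasts, macrophages or the Schwann cell lineage. After TMM all genes tested had log2 fold changes below 0 for endothelium (5 of 7 lower at an adjusted p of at most 0.05), macrophages (5 of 6), smooth muscle (1 of 6) and adipocytes (2 of 5), and 5 of 6 fibroblast genes were lower and 0 higher. With total counts 1 of 7, 2 of 6, 1 of 6, 1 of 5 and 2 of 6 were lower, and 1 fibroblast gene was higher. The nonmyelinating and perineurium lists held calls both ways. Ncam1 was higher (log2 fold change 1.16, adjusted p = 3.76e-12 by edgeR), as was 1 other gene of the nonmyelinating list, while 3 of its 6 genes were lower. Tjp1 was higher as well (log2 fold change 0.47, adjusted p = 0.000122 by edgeR). Without Itgb4, left out after its values were seen, the perineurium sums overlapped after TMM (818 to 962 against 818 to 897) and were higher in every Rnf40ΔSC library with total counts (907 to 1037 against 751 to 805). No marker of any list was at 0 in all libraries. The part of these levels in the members' values was not tested.

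Of the 10 members, 9 passed the filter on low counts and Sgcd did not. Prx, Drp2, Dag1, Utrn and Sgce were lower in Rnf40ΔSC nerves, which makes 5 of 9, and Dmd, Dtna and Sntb1 were higher, 3 of 9, at an adjusted p of at most 0.05 by the quasi-likelihood F test of edgeR after Benjamini-Hochberg adjustment. Over all 11371 genes tested, 16.2% were lower and 15.4% higher by that rule. Adding the study's limits, which ask for 0.8 or more in absolute log2 fold change and for 20 or more in base mean (the mean normalized count over all libraries), left Prx and Drp2 as lower, 2 of 9, and 0 as higher, against 5.05% and 3.73% of all genes tested. The median log2 fold change was -0.23 over the 9 members and 0.00 over all genes. Scaling by total counts moved the median of all genes to 0.27 and that of the members to 0.04, with 3 members lower (Prx, Drp2 and Sgce) and 4 higher (Dmd, Dtna, Sntb1 and Sgcb), against 7.74% and 33.1% of all genes tested. The members therefore moved in both directions under either scaling, and the size of each change has to be read against this shift of 0.27.

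**Figure D2:**
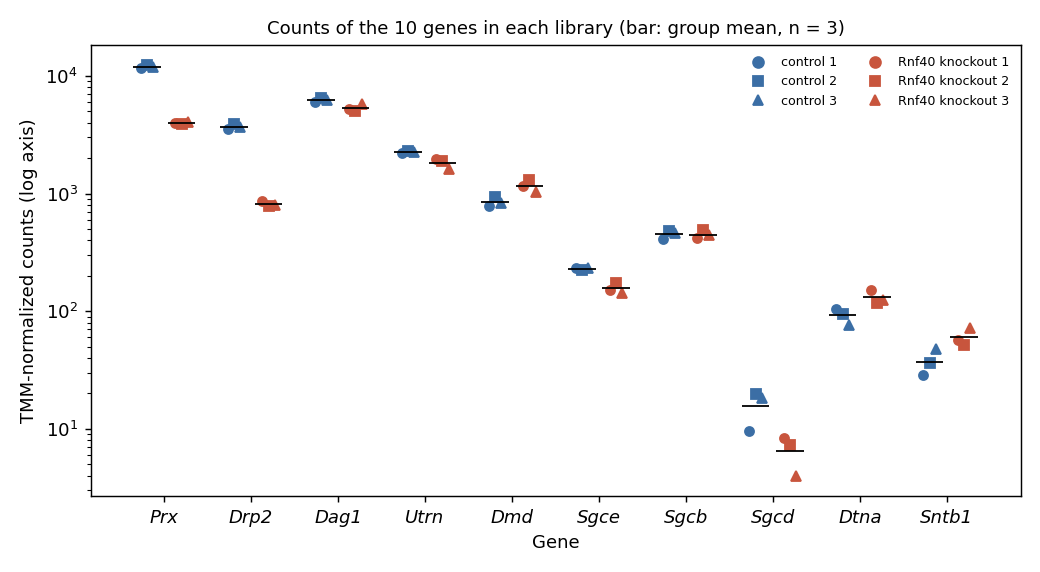
TMM-normalized counts of the 10 members (log axis) in 3 control and 3 Rnf40 knockout libraries, with a bar at each group mean. Prx and Drp2 show the widest gaps between the groups, and the groups of Sgcb overlap.

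Prx, which encodes periaxin, lies on chromosome 7 (28284343 to 28305233 on the plus strand, GENCODE vM1, mm9). It had 11686, 12358 and 11976 normalized counts in control and 3996, 3870 and 4078 in Rnf40ΔSC libraries. All 3 Rnf40ΔSC libraries were far below the controls, and libraries of a genotype lay close together. The mean was 12007 ± 337 in control and 3981 ± 105 in Rnf40ΔSC nerves (SD, n = 3 each), 33.2% of control. The log2 fold change was -1.59 (95% confidence interval -1.74 to -1.45, adjusted p = 5.35e-20 by the quasi-likelihood F test of edgeR after Benjamini-Hochberg adjustment). Among the 9336 genes whose base mean reached 20, Prx was at rank 118 from the lowest log2 fold change. Gene counts do not separate L-periaxin from S-periaxin, and the annotation places the antisense gene Gm15541 over Prx, whose reads cannot be told apart from those of Prx if strand was not used in counting.

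Promoter windows from 250 bases before to 50 bases after the start site were taken from the RefSeq table (GRCm38.p6). The windows used covered 6 of 10 members, 8 windows in all. Drp2, Sgce and Sntb1 had no match, and for Dtna a match was not assessed. After the members' values were known, 4 motifs were searched on both strands, namely GCGTGGG, a core sequence bound by EGR factors such as Egr2, ACAAAG and ACAATG, core sequences bound by SOX factors, and TATAAA. They occurred in 5.04%, 18.7%, 12.6% and 13.6% of the 32851 windows of the table. The Prx window held GCGTGGG once, on the reverse strand, starting 161 bases before the start site, and none of the other 3 motifs. TATAAA occurred in a window of Dmd and in that of Sgcb, 245 and 241 bases before the start site, and the windows of Dag1, Utrn and Sgcd held none of the 4. The windows of Prx, with the largest fall among the members with a window and tested, and of Dag1, its partner with a small change, are printed for comparison, the former from chr7:27499074-27499373 on the plus strand and the latter from chr9:108263909-108264208 on the minus strand. Capitals mark the match, and binding was not measured here.
Prx: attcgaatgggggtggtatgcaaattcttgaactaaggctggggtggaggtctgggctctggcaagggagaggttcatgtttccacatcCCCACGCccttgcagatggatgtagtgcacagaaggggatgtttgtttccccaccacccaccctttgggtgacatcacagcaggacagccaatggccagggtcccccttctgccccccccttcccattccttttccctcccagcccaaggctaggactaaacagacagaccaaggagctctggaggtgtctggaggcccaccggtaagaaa
Dag1: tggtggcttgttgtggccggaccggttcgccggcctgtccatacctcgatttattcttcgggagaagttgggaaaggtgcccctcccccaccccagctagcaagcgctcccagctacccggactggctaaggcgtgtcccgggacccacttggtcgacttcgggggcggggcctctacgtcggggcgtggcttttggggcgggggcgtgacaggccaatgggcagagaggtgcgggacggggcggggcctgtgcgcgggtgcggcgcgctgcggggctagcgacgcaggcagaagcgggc

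Drp2 encodes the dystrophin-related protein that links periaxin to dystroglycan and lies on the X chromosome (130939090 to 130991112, mm9). It had 3530, 3896 and 3649 normalized counts in control and 858, 781 and 796 in Rnf40ΔSC libraries. Each Rnf40ΔSC library held less than the lowest control by a wide margin. The mean fell from 3692 ± 187 to 812 ± 40.6 (SD, n = 3 each), to 22% of control. Drp2 had the lowest log2 fold change of the members tested under both TMM and total-count scaling, -2.18 with TMM (95% confidence interval -2.35 to -2.02, adjusted p = 8.96e-22 by the quasi-likelihood F test of edgeR after Benjamini-Hochberg adjustment) and -1.92 with total counts. Among the 9336 genes it was at rank 35 from the lowest log2 fold change.

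Because Drp2 and Dmd are X-linked, sex-linked genes were looked at in each library, a choice made after the data had been seen. Xist, transcribed from the inactive X chromosome of females, was counted 631, 320 and 407 times in control libraries and 692, 1179 and 1167 times in those of Rnf40ΔSC. These raw counts are not scaled for depth. Control replicate 1 had the smallest library total, 1317167, so they do not order the libraries by Xist level. Raw counts of the Y-linked Ddx3y were 0, 83 and 100 in control libraries and 111, 0 and 68 in those of Rnf40ΔSC. Control replicate 1 and Rnf40ΔSC replicate 2 were thus the libraries without Ddx3y reads. The part of sex in the differences of Drp2, Dmd and the other genes was not tested.

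Dag1, which encodes both subunits of dystroglycan (chromosome 9, 108108286 to 108166255), had 6053, 6476 and 6241 normalized counts in control and 5203, 5074 and 5745 in Rnf40ΔSC libraries. The groups did not overlap, but the distance between them was small. The mean was 6257 ± 212 in control and 5341 ± 356 in Rnf40ΔSC nerves (SD, n = 3 each), and the log2 fold change -0.23 (95% confidence interval -0.38 to -0.08, adjusted p = 0.0152 by the quasi-likelihood F test of edgeR after Benjamini-Hochberg adjustment). Scaling by total counts turned the direction, to 0.04 on the log2 scale (adjusted p = 0.675; range over all alternatives 0.00308 to 0.675). The call was also lost without control replicate 2 (adjusted p = 0.0653) or 3 (0.0713) and without Rnf40ΔSC replicate 1 (0.107) or 2 (0.0771).

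**Figure D3:**
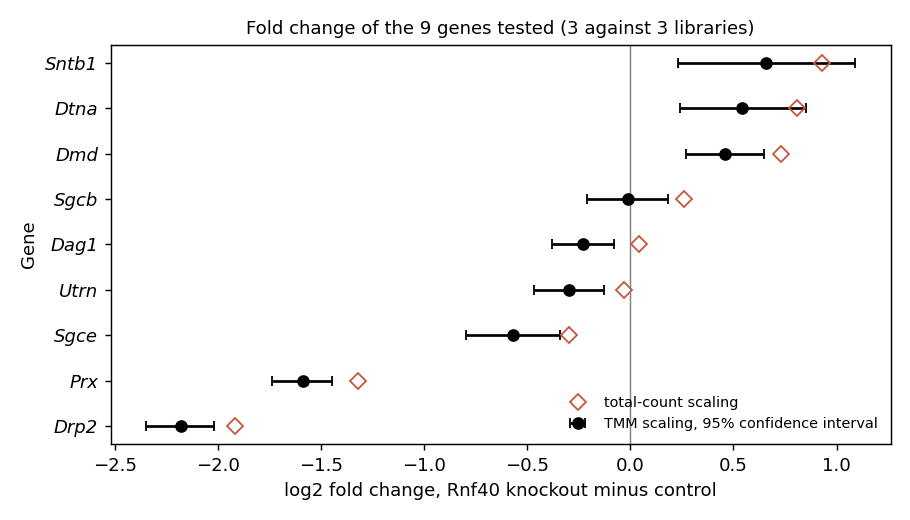
Log2 fold change between Rnf40 knockout and control of the 9 members tested, with 95% confidence intervals after TMM scaling (filled) and the value after total-count scaling (open). Drp2 (-2.18) and Prx (-1.59) lie apart from the others, and Dag1 and Sgcb change sign with total-count scaling.

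Utrophin and dystrophin are the larger relatives of DRP2 that also bind dystroglycan. Utrn (chromosome 10, 12101986 to 12589163) had 2210, 2282 and 2245 normalized counts in control and 1959, 1906 and 1603 in Rnf40ΔSC libraries. The lowest value was that of Rnf40ΔSC replicate 3. Its log2 fold change was -0.30 (95% confidence interval -0.47 to -0.13, adjusted p = 0.00512 by the quasi-likelihood F test of edgeR after Benjamini-Hochberg adjustment) and -0.03 (adjusted p = 0.765; range over all alternatives 0.00368 to 0.765) after total-count scaling, so that its call depended on the scaling.

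Dmd (X chromosome, 80194209 to 82451480) went the other way, with 781, 927 and 825 normalized counts in control and 1160, 1308 and 1032 in Rnf40ΔSC libraries. Every Rnf40ΔSC library exceeded every control library. The mean rose from 845 ± 74.9 to 1166 ± 138 (SD, n = 3 each), 1.38-fold, with a log2 fold change of 0.46 (95% confidence interval 0.27 to 0.65, adjusted p = 0.000204 by the quasi-likelihood F test of edgeR after Benjamini-Hochberg adjustment). Rnf40ΔSC replicate 3, whose summed muscle marker level was within the control range, had the lowest of the Rnf40ΔSC values, 1032. The highest control value was 927. Without that replicate the log2 fold change was 0.55, and with total counts over all libraries 0.73 (adjusted p = 9.34e-08 by edgeR). The Dmd gene has several promoters, and counts per gene do not separate Dp116 of Schwann cells from full-length dystrophin of muscle. The part of muscle in the Dmd values was not tested.

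The share of each of the 3 relatives in their summed raw counts does not depend on how libraries are scaled. Drp2 made up 54.13%, 54.84% and 54.30% of these counts in control libraries and 21.57%, 19.55% and 23.21% in Rnf40ΔSC libraries. Drp2 thus had the largest share in each control library and the smallest in each Rnf40ΔSC library. The share of Utrn went from 33.14% ± 0.92 to 47.90% ± 1.28 and that of Dmd from 12.44% ± 0.55 to 30.66% ± 1.86 (SD, n = 3 each). A share also rises when another gene of the sum falls, and the normalized counts of Utrn themselves went from 2246 ± 35.7 to 1823 ± 192 (SD, n = 3 each). For each share the exact two-sided permutation test gave p = 0.1, the smallest value that 3 against 3 libraries allow, so that no share could pass 0.05. Their summed normalized counts went from 6782 ± 297 to 3801 ± 320 (SD, n = 3 each). Divided by the merged exon length of each gene, Drp2 made up 67.68% ± 0.48 of the 3 in control and 33.70% ± 2.34 in Rnf40ΔSC nerves, Utrn 26.74% ± 0.73 and 48.89% ± 1.56, and Dmd 5.58% ± 0.25 and 17.40% ± 1.35 (SD, n = 3 each).

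**Figure D4:**
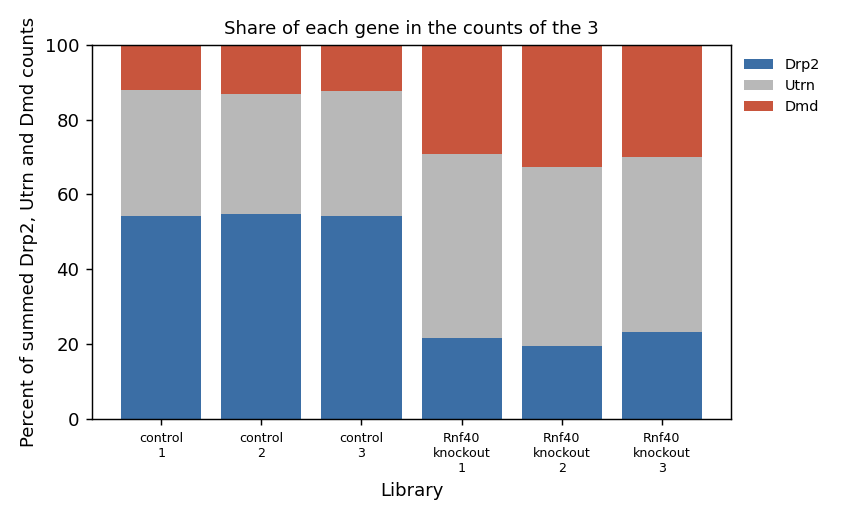
Percent of the summed raw counts of Drp2, Utrn and Dmd that each gene took in each of 3 control and 3 Rnf40 knockout libraries. Drp2 took 54.13% to 54.84% in control and 19.55% to 23.21% in Rnf40 knockout libraries.

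The sarcoglycans are membrane proteins that associate with dystroglycan. Sgce (chromosome 6, 4624350 to 4697204), encoding the epsilon subunit found in many tissues, had 235, 223 and 232 normalized counts in control and 150, 172 and 144 in Rnf40ΔSC libraries. All Rnf40ΔSC libraries were lower, and the log2 fold change was -0.57 (SE 0.11, adjusted p = 0.000129 by the quasi-likelihood F test of edgeR after Benjamini-Hochberg adjustment), or -0.30 with total counts (adjusted p = 0.0336). Sgcb (chromosome 5, 74023988 to 74038983), encoding the beta subunit, had 408, 484 and 458 against 415, 486 and 444 normalized counts. Its groups overlapped, and the log2 fold change of -0.01 (95% confidence interval -0.21 to 0.18, adjusted p = 0.936 by the same test) was 0.26 (adjusted p = 0.0333; range over all alternatives 0.0333 to 0.995) after total-count scaling. Sgcd (chromosome 11, 46709755 to 47802471), encoding the delta subunit, was counted only 6, 18 and 21 times in control libraries and 10, 6 and 5 times in those of Rnf40ΔSC, and was not tested. At this depth a difference in Sgcd could not be assessed well. A fit without the filter put its log2 fold change at -1.33 (SE 0.44, adjusted p = 0.0153 by edgeR). Where single libraries were left out and Sgcd then passed the filter, it did not pass the test without control replicate 2 (adjusted p = 0.091) or Rnf40ΔSC replicate 3 (0.0757).

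Dystrobrevin and syntrophin are cytoplasmic proteins that bind the dystrophin relatives. Dtna, which encodes alpha-dystrobrevin on chromosome 18, had 105, 94.8 and 76.6 normalized counts in control and 152, 117 and 125 in Rnf40ΔSC libraries. Every Rnf40ΔSC library was higher, and the log2 fold change was 0.54 (SE 0.15, adjusted p = 0.00477 by the quasi-likelihood F test of edgeR after Benjamini-Hochberg adjustment), but the call was lost without control replicate 3 (adjusted p = 0.0842) or Rnf40ΔSC replicate 1 (0.0545), in a range of 4.45e-05 to 0.0842 over all alternatives. Sntb1 (chromosome 15, 55470398 to 55738504), encoding beta-1-syntrophin, had 28.6, 36 and 47.3 against 57.1, 51.8 and 71.8 normalized counts. The groups were separated by a small gap. The log2 fold change was 0.66 (SE 0.21, adjusted p = 0.015 by the same test). It missed 0.05 with DESeq2 (adjusted p = 0.068, or 0.0671 once its prior on fold changes was used) and without control replicate 1 (0.0792) or 2 (0.0681) or Rnf40ΔSC replicate 3 (0.0796), in a range of 0.000611 to 0.0796 over all alternatives.

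Levels were set against each other as TMM-scaled CPM per kilobase of merged exons (GENCODE vM1, which need not be the annotation the counts were made with). Merged exons cover all annotated isoforms (23.8 kb for Dmd), so the place of a gene with shorter forms, such as Dp116, depends on this length. The shares divided by length above have the same limit. In control nerves the order was Prx (1104 ± 31), Dag1 (703 ± 23.8), Drp2 (221 ± 11.2), Utrn (87 ± 1.38), Sgcb (61.7 ± 5.28), Sgce (38.2 ± 0.992), Dmd (18.2 ± 1.61), Sntb1 (6.67 ± 1.69), Dtna (5.02 ± 0.779) and Sgcd (0.977 ± 0.337; SD, n = 3 each). Libraries of neighbours in this order overlapped only for Sntb1 and Dtna. In Rnf40ΔSC nerves the highest level per kilobase was that of Dag1 (600 ± 40), followed by Prx (366 ± 9.61), Utrn (70.6 ± 7.44), Sgcb (61.4 ± 4.89), Drp2 (48.5 ± 2.43), Sgce (25.8 ± 2.46) and Dmd (25.1 ± 2.97; SD, n = 3 each), with overlap between Utrn and Sgcb and between Sgce and Dmd. Dag1 thus stood above Prx, and Drp2 below Utrn and Sgcb, in Rnf40ΔSC but not in control nerves.

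Ratios within a library, which scaling does not alter, show how unequally the members moved. The log2 ratio of Drp2 to Prx was -1.73, -1.67 and -1.71 in control and -2.22, -2.31 and -2.36 in Rnf40ΔSC libraries, so that Drp2 fell more than its partner. The log2 ratio of Dag1 to Prx went from -0.94 ± 0.01 to 0.42 ± 0.06, that of Utrn to Drp2 from -0.72 ± 0.05 to 1.16 ± 0.14, and that of Dmd to Drp2 from -2.13 ± 0.05 to 0.52 ± 0.20 (SD, n = 3 each). The last corresponds to a 6.27-fold change of the ratio. Against Sox10, a transcription factor of the Schwann cell lineage, the log2 ratio of Prx fell from 3.54 ± 0.07 to 2.73 ± 0.06 (SD, n = 3 each). In none of these ratios did the groups overlap, and each had p = 0.1 by the exact two-sided permutation test (adjusted p = 0.1 over the 6 ratios tested), the smallest possible value.

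The other subunits of the dystrophin-glycoprotein complex were a list of 9 genes, of which 5 could be tested, 2 were lower and 0 higher at an adjusted p of at most 0.05. Their median log2 fold change was -0.67 (-0.40 after total-count scaling, -0.37 without Rnf40ΔSC replicate 1 and -0.30 over the 8 genes fitted without the filter). Sspn, which encodes sarcospan, was 1 of the lower genes (113, 155 and 139 normalized counts in control against 81.1, 69.9 and 104 in Rnf40ΔSC libraries, log2 fold change -0.67, adjusted p = 0.00074 by edgeR).

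Matriglycan, the sugar chain by which dystroglycan binds laminin, is built by a series of O-mannosyl glycosylation enzymes. Of 18 such genes 17 were tested, and 1 was lower and 0 higher, with a median log2 fold change of -0.07 after TMM, against 0 lower, 1 higher and a median of 0.20 after total-count scaling. The lower gene was Pomt2, a subunit of the O-mannosyltransferase (112 ± 1.36 in control, 79 ± 1.18 in Rnf40ΔSC nerves, SD, n = 3 each; log2 fold change -0.50, adjusted p = 0.00825 by edgeR). Its call was lost with total counts (log2 fold change -0.23, adjusted p = 0.22 by edgeR; range over all alternatives 0.0089 to 0.22). The genes of this list with the highest counts, Pomgnt1 and Large, had log2 fold changes of -0.05 and -0.06, with adjusted p-values of 0.798 and 0.793 by edgeR, and values of 0.22 and 0.21 after total-count scaling.

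Dystroglycan ligands moved unequally. Of 11 genes tested, 4 were lower and 2 higher, with a median log2 fold change of -0.15 (-0.27 to -0.08 with single libraries left out). After total-count scaling 2 were lower and 3 higher, with a median of 0.12. Lama1, the laminin chain of early basement membranes, was counted 2, 0 and 3 times in control libraries and 102, 61 and 121 times in those of Rnf40ΔSC (adjusted p = 9.82e-15 by edgeR). Agrn, encoding agrin, went from 622 ± 21.5 to 424 ± 52.2 normalized counts and Lamb2, a laminin beta chain, from 646 ± 42.9 to 462 ± 61.2 (SD, n = 3 each), with log2 fold changes of -0.55 and -0.48 and adjusted p-values of 2.84e-05 and 0.000219 by edgeR. With total counts that of Lamb2 was -0.21 and did not pass (adjusted p = 0.0936 by edgeR; range over all alternatives 1.25e-06 to 0.0936). Lama2, the main laminin alpha chain of the Schwann cell basal lamina, was named after its values were seen, with 1145 ± 84.7 in control and 1070 ± 61.4 in Rnf40ΔSC nerves (SD, n = 3 each; log2 fold change -0.10, 0.17 after total-count scaling; adjusted p = 0.428 by edgeR). Hspg2, encoding perlecan, and Lamc1 had the highest counts of the list, with log2 fold changes of 0.03 and -0.11 (adjusted p = 0.824 and 0.296 by edgeR). After total-count scaling these were 0.30 and 0.16, and Hspg2 passed (adjusted p = 0.00242 by edgeR; range over all alternatives 0.00242 to 0.886).

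Of the proteases that cleave beta-dystroglycan and their inhibitors, 3 of 5 genes were tested, with a median log2 fold change of 0.39 (0.66 after total-count scaling). The inhibitor genes Timp3 (3021 ± 112 to 5356 ± 304 normalized counts, log2 fold change 0.83) and Timp2 (2459 ± 117 to 3218 ± 37, log2 fold change 0.39; SD, n = 3 each) were higher, with adjusted p-values of 3.08e-11 and 0.000133 by edgeR. Mmp2, the remaining gene tested, was not called (log2 fold change -0.23, adjusted p = 0.0833 by edgeR). It was at 0.04 with total counts and passed at -0.31 without control replicate 2 (adjusted p = 0.0471) or Rnf40ΔSC replicate 3 (0.0113), in a range of 0.0113 to 0.789 over all alternatives.

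**Figure D5:**
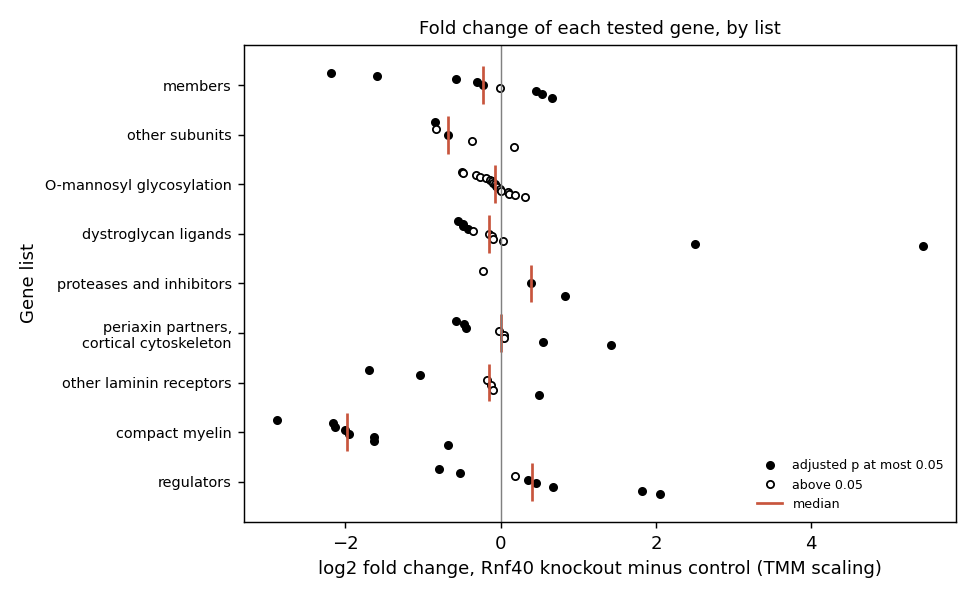
Log2 fold change between Rnf40 knockout and control of each tested gene by list (TMM scaling), filled where the adjusted p was at most 0.05, with the list median as a line. All 8 genes of the myelin list, labelled compact myelin, lie below 0, while most other lists hold values on both sides. The medians of the members, glycosylation, ligand and laminin receptor lists change sign with total-count scaling.

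Partners of periaxin and the cortical cytoskeleton gave 8 tested genes, 3 lower and 2 higher, with a median log2 fold change of 0.01. With single libraries left out this median ran from -0.03 to 0.04. After total-count scaling 1 was lower and 5 were higher, with a median of 0.28. Ahnak, encoding a large scaffold protein related to periaxin, fell from 2802 ± 232 to 1882 ± 81.5 normalized counts and Ezr, encoding the membrane linker ezrin, rose from 264 ± 13.3 to 704 ± 73.2 (SD, n = 3 each), with log2 fold changes of -0.57 and 1.42 and adjusted p-values of 6.46e-07 and 3.37e-14 by edgeR. Ank2, an ankyrin, was higher (log2 fold change 0.55, adjusted p = 2.01e-05 by edgeR) and Plec, encoding plectin, lower (-0.47, adjusted p = 0.000154), the latter without passing under total-count scaling (-0.20, adjusted p = 0.0973; range over all alternatives 1.18e-07 to 0.0973).

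Schwann cells also bind laminin through other receptors, chiefly integrins. Of 6 such genes, 5 for integrin chains and Bcam, 2 were lower and 1 higher, with a median log2 fold change of -0.14 (0.13 after total-count scaling). Itgb4, the beta-4 chain, had 813, 926 and 952 normalized counts in control and 286, 234 and 310 in Rnf40ΔSC libraries, which gave -1.69 as log2 fold change (SE 0.10, adjusted p = 4.77e-16 by edgeR). Itga6, the alpha-6 chain that pairs with it, went from 2382 ± 145 to 3358 ± 143 (SD, n = 3 each), so that its log2 fold change was 0.50 (adjusted p = 4.36e-06 by edgeR). Itga3 was lower (log2 fold change -1.03, adjusted p = 0.00142 by edgeR). Perineurial cells also transcribe Itgb4.

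For comparison, all 8 genes of a myelin list were lower, with a median log2 fold change of -1.98 (-1.71 after total-count scaling). The list held genes of compact myelin, and also Mag and Cldn19 of non-compact myelin. Pmp2, Pmp22 and Mag had log2 fold changes of -2.88, -2.13 and -2.00, with adjusted p-values of 8.43e-06, 6.86e-25 and 6.96e-17 by edgeR. The median of this list lay between the values of Drp2 (-2.18) and Prx (-1.59).

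Of 8 regulators of Schwann cell differentiation, 5 were higher and 2 lower, with a median log2 fold change of 0.41. After total-count scaling 6 were higher and 1 lower, with a median of 0.68. Pou3f1 (Oct6) and Pou3f2 (Brn2), factors of the promyelinating stage, had log2 fold changes of 2.05 and 1.82, Egr1 0.68 and Sox10 -0.79, with adjusted p-values of 9.27e-12, 2.53e-14, 0.00211 and 8.8e-09 by edgeR. Egr2, the main activator of myelin genes, was named after its values were seen, with 473, 515 and 437 normalized counts in control and 594, 527 and 705 in Rnf40ΔSC libraries. Its log2 fold change was 0.36 (adjusted p = 0.00579 by edgeR), and 0.30 without passing when control replicate 3 was left out (adjusted p = 0.0873; range over all alternatives 7.93e-06 to 0.0873). Without that library 3 of the 8 regulators were higher.

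The genes whose log2 CPM were most like those of Prx over the 6 libraries, among 9335 genes whose base mean reached 20, included Nsdhl, Ncmap, Cldn19 and Drp2 (Pearson r from 0.9997 to 0.9992). For Drp2 they were Ncmap, Capn2, Mbp, Nsdhl and Prx (r from 0.9998 to 0.9992). With 6 libraries in 2 genotypes such values mostly follow the difference between genotypes, and they are given as a description only. Prx and Drp2 were each among the 5 genes most like the other.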

How the data were processed

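Sciatic nerve RNA of 3 control and 3 Rnf40ΔSC libraries was analysed. The authors aligned reads to mm9 with TopHat (the labels name mm9 and mm10), used HTSeq to assign reads with a unique position to genes, and deposited the resulting raw counts, which are not normalized. The annotation and strand setting are not given in the sources used here, so counts of overlapping genes (Prx, Utrn, Dmd and Sgcd, and of the other genes named for instance Timp2, Timp3, Ezr, Itgb4, Itga6, Plec, Ank2, Sspn and Pomt2) are uncertain. Labels and methods name different library kits. In R 4.3.3, edgeR 4.0.16 was used on all genes (filterByExpr, TMM, robust quasi-likelihood test with genotype as the only term, Benjamini-Hochberg adjustment). Standard errors are the log2 fold change over the root of F. The fit was tested on simulated data. Exact permutation tests used SciPy 1.17.1. Alternatives were DESeq2 1.42.0, other scalings and filters, the replicate number as a block and each library left out.

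Members and lists were chosen with earlier results of these data known. From each list up to 4 genes with an adjusted p of at most 0.05 and the largest absolute log2 fold change are named, and for other subunits, glycosylation and ligands also the 2 genes with the highest counts. Ahnak2 was not analysed here, and some genes that meet this rule are not reported here. Cell type marker lists are given by summed level. Chance tests of lists were not run.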

Additional observations from a re-analysis of the deposited data

How the results depend on the processing

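Under each alternative, Prx, Drp2, Dmd and Sgce kept their direction and their side of an adjusted p of 0.05. When single libraries were left out, log2 fold changes ran from -1.61 to -1.57 for Prx, from -2.22 to -2.15 for Drp2, from -0.27 to -0.19 for Dag1, from -0.35 to -0.21 for Utrn, from 0.38 to 0.55 for Dmd, from -0.64 to -0.51 for Sgce, from -0.08 to 0.05 for Sgcb, from 0.41 to 0.63 for Dtna and from 0.51 to 0.89 for Sntb1; 4 to 6 members were then lower and 2 to 3 higher, of 10 tested in 5 of these fits and 9 without control replicate 3, against 12.4% to 17.3% and 11.1% to 16.7% of all genes. Total-count scaling gave 3 members lower in place of 5 and log2 fold changes of -1.32 for Prx, -1.92 for Drp2, 0.04 for Dag1, -0.03 for Utrn, 0.73 for Dmd, -0.30 for Sgce, 0.26 for Sgcb, 0.81 for Dtna and 0.93 for Sntb1, and its calls over all genes were 880 lower and 3766 higher in place of 1841 and 1756, as it shifts all genes by a median of 0.27. The study's limits gave 2 lower and 0 higher. With at least 10 counts in every library Sgcb was at 0.0009. DESeq2 gave Sntb1 0.67 without and 0.61 with a fold-change prior, neither past 0.05, and without a filter on low counts Sgcd was the sixth lower member. Among the other genes whose fold changes are given and that were refitted, those that changed sign were Pomgnt1 (0.22 with total counts, and -0.11 to 0.05 with libraries left out, the latter without Rnf40ΔSC replicate 3), Large (0.21 with total counts, and -0.21 to 0.05 with libraries left out, of which 0.01 without control replicate 2, 0.05 without control replicate 3, 0.01 without Rnf40ΔSC replicate 2), Hspg2 (-0.06 to 0.10 with libraries left out, of which -0.02 without control replicate 1 and -0.06 without Rnf40ΔSC replicate 3) and, with total counts, Lamc1 (0.16), Lama2 (0.17; -0.16 to -0.05 with libraries left out) and Mmp2 (0.04; -0.31 to -0.15). With libraries left out, list medians ran from -0.84 to -0.37 for other subunits, from -0.27 to -0.08 for ligands, from -0.16 to -0.02 for glycosylation and from 0.38 to 0.64 for proteases and inhibitors. The cause was not tested apart from the shift by total counts. Same-numbered libraries did not deviate together (correlations -0.09, -0.02 and -0.06). The fit with the replicate block changed no call among the members tested and the other refitted genes whose fold changes are given (Prx -1.59, Utrn -0.31, Sntb1 0.68). In the marker lists it called 6 of 7 endothelium genes and 2 of 6 smooth muscle genes lower, in place of 5 and 1. For shares and ratios every alternative kept the direction, but no p could pass 0.05. Depth limits Sgcd and Sntb1, with at most 21 and 90 raw counts per library. Sgcd has no TMM value with the filter to compare with; the fits that held it gave -1.58 to -1.04.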
